A study of Rattus norvegicus with 10 samples.

Results

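The acute cytokines and chemokines described here were 10 secreted signalling proteins of early inflammation, namely Cxcl1, Cxcl2, Ccl2, Ccl7, Ccl3, Ccl4, Il6, Lif, Il1b and Tnf. They were taken by gene name from the table of 32545 rat genes, where they made up 11 rows because Tnf was listed under 2 identifiers. Of these, 9 members passed the filter on low counts, out of 15032 genes tested in all. RNA was measured in the CA1 region of hippocampal slices from adult male Wistar rats 5 to 7 weeks old, in 5 groups of 2 libraries. The SKF group was treated with SKF, an agonist of dopamine D1/D5 receptors, and the SKF+Aβ group received oligomers of the amyloid peptide Aβ(1-42) in addition. The SKF+Aβ+CSP group also received CSP, a carbon nanosphere made from glucose that serves as the vehicle, and in the SKF+Aβ+CSP-TTK21 group that particle carried TTK21, a small molecule that activates the histone acetyltransferases CBP/p300. CSP-TTK21 was also applied by itself, without SKF and without Aβ. Per the study the slices were taken 1 h after treatment and each repeat combined slices from different biological samples, so that the libraries are pools. Untreated slices were not analysed here, and every group shared the slicing and recording procedure.

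Chemokines are small secreted proteins that draw leukocytes along a gradient. Cxcl1 and Cxcl2 act on Cxcr2 and attract neutrophils, Ccl2 and Ccl7 act on Ccr2 and attract monocytes, and Ccl3 and Ccl4 attract monocytes and T cells. Il6 and Lif signal through the shared receptor chain Il6st and STAT3, while Il1b and Tnf are the early cytokines that activate NF-κB in their target cells. In brain tissue these genes are induced within the first hours after injury, slicing or microglial activation, and NF-κB is a main activator of several of them.

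The region before the gene start is shown for Cxcl1, Cxcl2 and Il6, whose fold changes between the 2 particle groups were the largest of the members. The RefSeq promoter table (build GRCr8) held 6 of the 10 members and no entry for Ccl2, Ccl3, Ccl4 and Lif. In each sequence of 250 bases, read 5′ to 3′ up to the gene start, capitals mark matches to the NF-κB consensus and, in Il6, to the cAMP response element (CRE, TGACGTCA).
Cxcl1 (GRCr8, chr14:17479322-17479571, minus strand): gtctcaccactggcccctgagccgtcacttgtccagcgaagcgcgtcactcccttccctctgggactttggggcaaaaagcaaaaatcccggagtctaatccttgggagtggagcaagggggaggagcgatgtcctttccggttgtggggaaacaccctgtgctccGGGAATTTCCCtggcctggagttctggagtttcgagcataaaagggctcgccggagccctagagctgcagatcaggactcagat
Cxcl2 (GRCr8, chr14:17467256-17467505, minus strand): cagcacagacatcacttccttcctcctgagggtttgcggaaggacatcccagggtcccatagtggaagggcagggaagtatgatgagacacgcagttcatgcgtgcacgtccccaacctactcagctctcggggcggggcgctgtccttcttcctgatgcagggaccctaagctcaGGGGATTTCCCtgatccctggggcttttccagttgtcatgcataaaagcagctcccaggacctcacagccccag
Il6 (GRCr8, chr4:5894576-5894825, minus strand): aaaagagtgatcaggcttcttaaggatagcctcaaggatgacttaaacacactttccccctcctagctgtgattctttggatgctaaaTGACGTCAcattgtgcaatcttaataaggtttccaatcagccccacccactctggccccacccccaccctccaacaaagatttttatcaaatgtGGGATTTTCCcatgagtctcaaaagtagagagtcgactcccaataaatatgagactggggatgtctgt

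Matches were searched on both strands for the NF-κB consensus, the CRE and the AP-1 motif TGANTCA. The NF-κB consensus was found in 3 of the 6 promoters, those of Cxcl1, Cxcl2 and Il6, and in 3.54% of all 33469 promoters of the table. It began 84 bases before the start of Cxcl1, 74 bases before that of Cxcl2 and 68 bases before that of Il6. In Cxcl1 and Cxcl2 there were 2 overlapping matches, which appear as 1 run of capitals. The CRE was found in Il6 only (1.59% of all promoters), 162 bases before the start, and the AP-1 motif in Ccl7 only (6.34%). The windows of Il1b and Tnf held none of these letters.

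Total counts were between 6753742 and 8473407 per library, and 3 counts corresponded to 0.354 to 0.447 CPM (counts scaled to the library's depth with TMM factors). The label hippocampus was checked with excitatory neuron genes such as Camk2a and Slc17a7. All 8 of that list passed the filter, with a summed level of 5240 to 6300 CPM. Microglia markers summed to 163 to 284 CPM, and all 12 passed the filter. Of the neutrophil markers S100a8, S100a9, Mpo, Elane and Ngp, none passed the filter. The endothelial marker Cldn5 was listed with 0 counts in every library, although the endothelial markers Cdh5 (14.1 to 54.9 CPM) and Flt1 (34.2 to 81.6 CPM) were counted. The reason for the 0 counts was not examined. At an unadjusted p under 0.05, the marker genes that differed among the groups were 3 of 12 for microglia, 1 of 2 for perivascular macrophages, 0 of 1 for neutrophils and blood (Hbb), 3 of 8 for astrocytes, 2 of 7 for endothelial and mural cells, 0 of 5 for meningeal fibroblasts, 2 of 6 for oligodendrocytes and 2 of 8 for excitatory neurons, against 14.3% of all genes, and 0 of them passed edgeR's adjusted test. The summed level of the meningeal fibroblast list (90.1 to 150 CPM) was mostly Pdgfra (74.6 to 125 CPM). Its sums therefore follow Pdgfra more than Col1a1, Col3a1 and Dcn. Levels in CPM are not scaled by transcript length, so they are compared between libraries and not between genes. In bulk libraries, fewer cells of a type and less RNA per cell cannot be told apart.

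**Figure D1:**
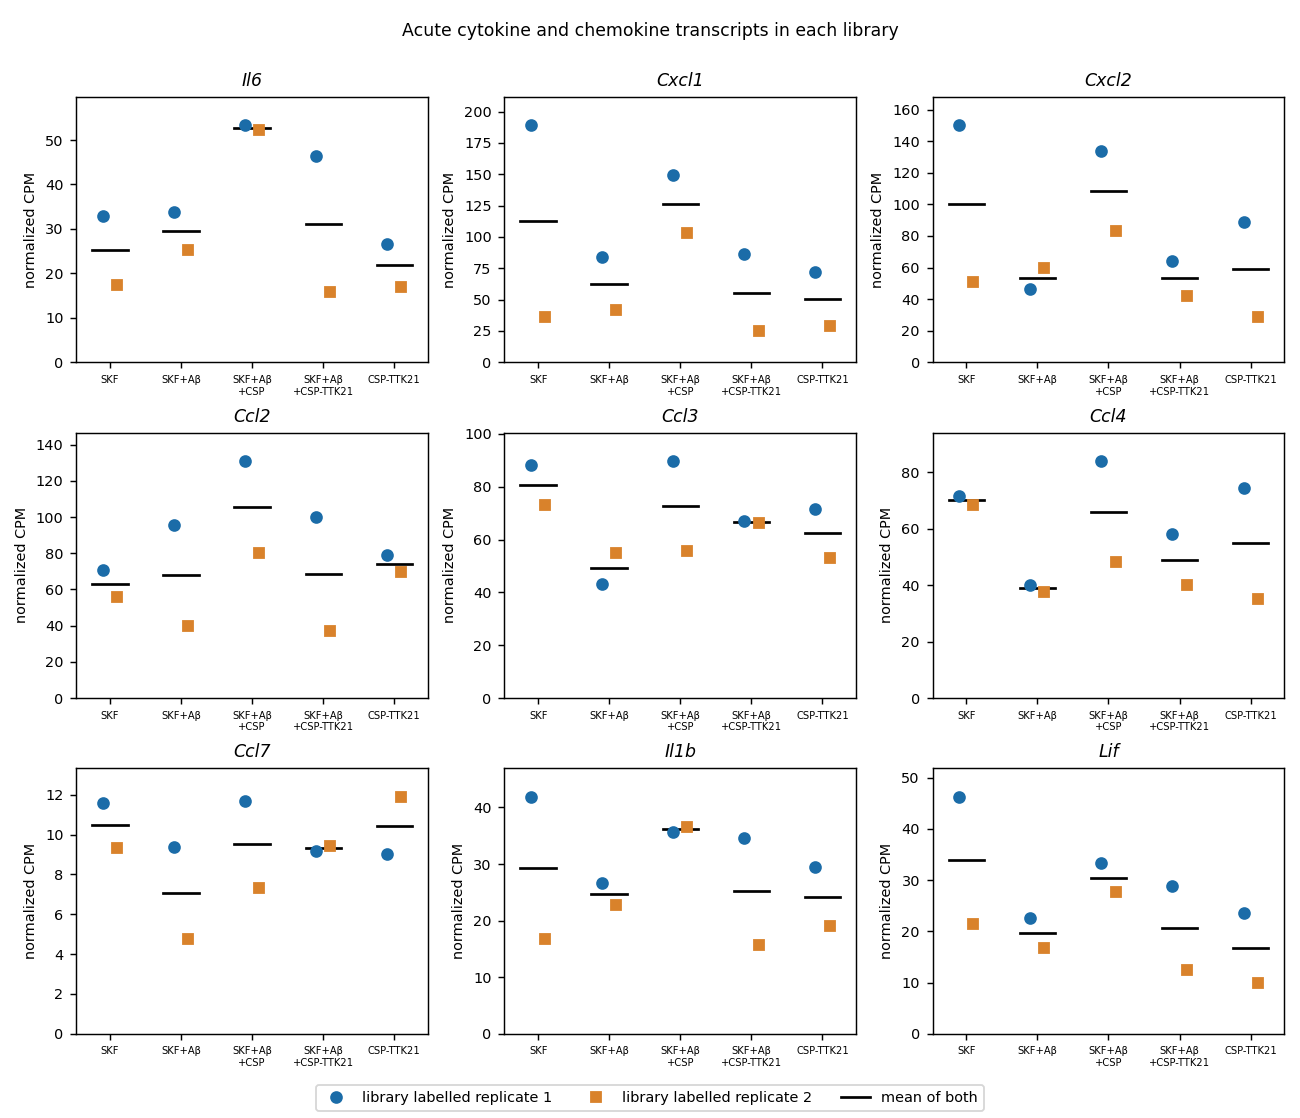
Normalized CPM (vertical axis from 0) of the 9 tested transcripts in each of the 10 libraries, by treatment group. Circles and squares are the libraries labelled replicate 1 and 2, and the bar is their mean. The circle lies above the square in every group for Il6, Cxcl1, Ccl2, Ccl4 and Lif.

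Among the neutrophil chemokines, Cxcl1 (ENSRNOG00000002802) had 189 and 36.4 CPM in replicates 1 and 2 of SKF, 83.7 and 42 CPM in SKF+Aβ, and 149 and 103 CPM in SKF+Aβ+CSP. It had 86 and 24.7 CPM in SKF+Aβ+CSP-TTK21 and 72 and 29.1 CPM with CSP-TTK21 alone. Its highest library was thus 7.66 times its lowest, and the widest gap within a group was in SKF, where the libraries differed 5.19-fold. Only the SKF+Aβ+CSP group had both libraries above 100 CPM.

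Cxcl2 (ENSRNOG00000002792) had 150 and 51 CPM in SKF, 46.7 and 59.9 CPM in SKF+Aβ, 134 and 83 CPM in SKF+Aβ+CSP, 64.3 and 42.1 CPM in SKF+Aβ+CSP-TTK21 and 89.1 and 28.5 CPM in CSP-TTK21. As for Cxcl1, the first SKF library was the highest, and both SKF+Aβ+CSP libraries lay above both libraries of the other Aβ groups. The single group in which replicate 2 was the higher library was SKF+Aβ.

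Of the monocyte chemokines, Ccl2 (ENSRNOG00000007159) had 70.6 and 55.9 CPM in SKF, 95.8 and 39.8 CPM in SKF+Aβ, 131 and 80.2 CPM in SKF+Aβ+CSP, 100 and 37.2 CPM in SKF+Aβ+CSP-TTK21 and 78.8 and 69.5 CPM in CSP-TTK21. Both SKF+Aβ+CSP libraries were above both SKF libraries, while the SKF+Aβ and SKF+Aβ+CSP-TTK21 groups spanned the SKF values. Ccl7 (ENSRNOG00000000239) had 4.77 to 11.9 CPM over the libraries, with a median of 9.35. Its lowest value was in replicate 2 of SKF+Aβ (32 counts) and its highest in replicate 2 of CSP-TTK21 (89 counts), and the groups overlapped in all comparisons.

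Ccl3 (ENSRNOG00000011205) and Ccl4 (ENSRNOG00000011406), chemokines typical of microglia and macrophages, varied less. Ccl3 had 88.3 and 72.9 CPM in SKF, 43.3 and 54.8 CPM in SKF+Aβ, 89.7 and 55.6 CPM in SKF+Aβ+CSP, 67.1 and 66.4 CPM in SKF+Aβ+CSP-TTK21 and 71.7 and 53.1 CPM in CSP-TTK21. Ccl4 had 71.6 and 68.5 CPM in SKF, 40.2 and 37.6 CPM in SKF+Aβ, 84 and 48.2 CPM in SKF+Aβ+CSP, 58.3 and 39.9 CPM in SKF+Aβ+CSP-TTK21 and 74.6 and 35 CPM in CSP-TTK21. For both genes the SKF+Aβ libraries lay below the SKF libraries, and for both the mean was lowest in SKF+Aβ.

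Il6 (ENSRNOG00000010278), which signals through Il6st, had 32.9 and 17.4 CPM in SKF, 33.7 and 25.3 CPM in SKF+Aβ and 53.3 and 52.2 CPM in SKF+Aβ+CSP. It had 46.3 and 15.8 CPM in SKF+Aβ+CSP-TTK21 and 26.7 and 17 CPM in CSP-TTK21. The SKF+Aβ+CSP libraries were the 2 highest of all 10 and close to each other, whereas those of SKF+Aβ+CSP-TTK21 were far apart.

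Lif (ENSRNOG00000007002), a cytokine of the same family, had 46.3 and 21.5 CPM in SKF, 22.6 and 16.8 CPM in SKF+Aβ, 33.4 and 27.6 CPM in SKF+Aβ+CSP, 28.9 and 12.5 CPM in SKF+Aβ+CSP-TTK21 and 23.6 and 9.89 CPM in CSP-TTK21. Its mean was lowest in CSP-TTK21, where the lowest library held 74 counts. Il1b (ENSRNOG00000004649) had 41.9 and 16.8 CPM in SKF, 26.7 and 22.8 CPM in SKF+Aβ, 35.7 and 36.6 CPM in SKF+Aβ+CSP, 34.6 and 15.7 CPM in SKF+Aβ+CSP-TTK21 and 29.4 and 19 CPM in CSP-TTK21. The SKF, SKF+Aβ+CSP-TTK21 and CSP-TTK21 groups overlapped for Il1b.

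Tnf was at the limit of detection. One of its rows (ENSRNOG00000055156) held 0 to 6 counts per library and the other (ENSRNOG00000000837) held 0 to 3 counts. Neither passed the filter, and no difference in Tnf was detectable with these counts.

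The first question was whether any member differed among the 5 groups. In edgeR's quasi-likelihood test across all groups, 0 of the 9 tested members were called at an adjusted p under 0.05, where 0.00665% of all genes were called. At an unadjusted p under 0.05 it was 1 member, against 14.3% of all genes. That member was Il6 (edgeR adjusted p = 0.329), followed by Ccl3 (edgeR adjusted p = 0.361). DESeq2 also called 0 members, where it called 2.57% of all genes, and limma-trend called 0 members and 0.00665% of all genes. The count depended on the filter, since without a filter on low counts the same test called 7 members, and 5.55% of all 25251 genes.

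The effect of Aβ oligomers was examined by comparing SKF+Aβ with SKF. The CC chemokines Ccl3 and Ccl4 were lower in both SKF+Aβ libraries, while Il6 and Ccl2 overlapped between the groups. For Ccl3 the log2 fold change was -0.72 ± 0.22 (SE; edgeR adjusted p = 0.0865), and for Ccl4 it was -0.85 ± 0.31 (edgeR adjusted p = 0.131). Neither passed the adjusted test in edgeR with the filter, but Ccl3 did in DESeq2 (DESeq2 adjusted p = 0.0309) and both did in edgeR without the filter (edgeR adjusted p = 0.00133 and 1.36e-04), as did Cxcl1, Cxcl2 and Lif (edgeR adjusted p = 5.38e-05, 1.20e-05 and 0.00497). The share of all genes past that limit without the filter was not counted. With a log2 fold change beyond 1.5 as well, that fit called 0 members and 0.444% of all 25251 genes, against 0.146% with the filter. It was thus the more liberal over all genes. With the filter, Cxcl1 (-0.84 ± 0.65), Cxcl2 (-0.91 ± 0.48) and Lif (-0.78 ± 0.42) had fold changes of like size with wider errors. Within replicate 1 the log2 ratio of Cxcl1 was -1.18 and that of Cxcl2 was -1.68, and within replicate 2 they were 0.21 and 0.23. For Lif it was -1.03 in replicate 1 and -0.35 in replicate 2. Without the first SKF library the log2 fold changes turned to 0.77 for Cxcl1 and 0.05 for Cxcl2. With the study's limits, an adjusted p under 0.05 and a log2 fold change beyond 1.5, 0 of 9 members and 0.146% of all genes were called. An unadjusted p under 0.05 was reached by 2 members, against 22.8% of all genes, and the groups did not overlap, with lower values in SKF+Aβ, for 2 members, against 24.3% of all genes. The median log2 fold change of the members was -0.72, while that of all genes was 0 to 2 decimals. At an unadjusted p under 0.05, 10.9% of all genes were lower and 12% higher. Of 12 microglia markers, 3 were lower and 0 higher at that limit, with C1qa at -1.20, while their summed level was 170 and 283 CPM in SKF and 167 and 213 CPM in SKF+Aβ. Oligodendrocyte markers were lower for 4 of 6 at the same limit, with sums of 16200 and 24000 CPM in SKF and 15500 and 10900 CPM in SKF+Aβ. Astrocyte markers were lower for 3 of 8, with sums of 4230 and 5680 CPM in SKF and 4500 and 4460 CPM in SKF+Aβ. Of the perivascular macrophage markers, Lyve1 was higher at that limit (1.17) and Mrc1 had 0.66, with sums of 5.67 and 4.94 CPM in SKF and 7.82 and 9.39 CPM in SKF+Aβ. The meningeal fibroblast marker Dcn was higher (1.53), 1 of 5 of that list, with sums of 90.1 and 122 CPM in SKF and 96.5 and 125 CPM in SKF+Aβ. Of these sums, Pdgfra made up 75.6 and 104 CPM in SKF and 74.6 and 90.9 CPM in SKF+Aβ. Of 8 neuron markers Nrgn was lower (-0.46). None of the 7 endothelial and mural markers passed that limit. Their part in the result was not tested.

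Adding the nanosphere vehicle was examined by comparing SKF+Aβ+CSP with SKF+Aβ. All 9 tested members had a positive log2 fold change, and for 7 of them (Cxcl1, Cxcl2, Ccl3, Ccl4, Il6, Lif and Il1b) both SKF+Aβ+CSP libraries lay above both SKF+Aβ libraries. The share of all genes with higher values and no overlap was 14.3%. The largest differences were those of Cxcl2 (1.03 ± 0.48, a fold of 2.04) and Cxcl1 (1.01 ± 0.65, a fold of 2.01), followed by Il6 (0.84 ± 0.38), Ccl4 (0.77 ± 0.31), Ccl2 (0.64 ± 0.41) and Lif (0.63 ± 0.42). Il1b (0.55 ± 0.38), Ccl3 (0.57 ± 0.22) and Ccl7 (0.43 ± 0.32) were lower in size. An unadjusted p under 0.05 was found for 3 members, Ccl3, Ccl4 and Il6, where 2.18% of all genes reached it. In replicates 1 and 2 the log2 ratio was 1.05 and 0.02 for Ccl3, 1.06 and 0.36 for Ccl4, and 0.66 and 1.04 for Il6. The differences of Ccl3 and Ccl4 thus came mostly from the replicate 1 libraries. The adjusted p was 1 for every member in edgeR's test, and 0 members and 0% of all genes were called. The median log2 fold change of the members was 0.64 and that of all genes was -0.01. Since the members vary together over the libraries, as described further on, these counts are not those of 9 independent genes. Endothelial and mural markers summed to 171 and 139 CPM in SKF+Aβ and to 239 and 179 CPM in SKF+Aβ+CSP. Of the 7 tested, Cdh5 had an unadjusted p under 0.05 and was higher (0.87), as were 1.63% of all genes. The part of these cells in the result was not tested.

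Against SKF, Il6 was the member with the lowest p in SKF+Aβ+CSP. Its log2 fold change was 1.07 ± 0.39, a fold of 2.1 (edgeR adjusted p = 0.169), and both libraries lay above both SKF libraries. Ccl2 was likewise above SKF in both libraries (0.74 ± 0.41, edgeR adjusted p = 0.339). For Cxcl1 and Cxcl2 the groups overlapped, because the first SKF library was the highest of all 10. The members called were 0 of 9, against 0.0133% of all genes, those at an unadjusted p under 0.05 were 1, against 19.3%, and those with higher values and no overlap were 2, against 27.1%. At an unadjusted p under 0.05, 9.03% of all genes were lower and 10.3% higher. Lower at that limit were 3 of 12 microglia markers, with C1qa at -0.98, 3 of 8 astrocyte markers and 3 of 8 neuron markers. Higher were 2 of 5 meningeal fibroblast markers, Col1a1 (1.21) and Col3a1 (1.10), and 1 of 7 endothelial and mural markers. The fibroblast list summed to 90.1 and 122 CPM in SKF and to 100 and 127 CPM in SKF+Aβ+CSP, and its Pdgfra to 75.6 and 104 CPM and to 83.9 and 77.4 CPM. Their part in the result was not tested.

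The question of whether TTK21 on the particle altered these genes was addressed by comparing SKF+Aβ+CSP-TTK21 with SKF+Aβ+CSP, 2 groups that differ in the attached molecule. All 9 tested members had a negative log2 fold change, and for Cxcl1, Cxcl2, Il6 and Il1b both libraries lay below both vehicle libraries, which held for 22.8% of all genes. The log2 fold change was -1.19 ± 0.65 for Cxcl1 (a fold of 0.44; -2.35 and -0.56 without the first and the second SKF+Aβ+CSP-TTK21 library), -1.03 ± 0.48 for Cxcl2 (a fold of 0.491), -0.76 ± 0.38 for Il6 and -0.52 ± 0.38 for Il1b. Ccl2 (-0.62 ± 0.41), Lif (-0.55 ± 0.42) and Ccl4 (-0.43 ± 0.31) overlapped between the groups, and Ccl3 and Ccl7 had the smallest differences. Without the first vehicle library the value of Ccl4 was 0.03. The smallest adjusted value was that of Cxcl2 (edgeR adjusted p = 0.567). Hence 0 members reached an unadjusted p under 0.05, against 8.78% of all genes, and 0 members and 0% of all genes were called. The median log2 fold change of the members was -0.55 and that of all genes was 0.01. In replicates 1 and 2 the log2 ratio was -0.79 and -2.07 for Cxcl1, -0.20 and -1.72 for Il6, -0.39 and -1.11 for Ccl2, -0.04 and -1.22 for Il1b, and -0.21 and -1.14 for Lif. For these 5 it was the more negative in replicate 2. It was -1.06 and -0.98 for Cxcl2, -0.53 and -0.27 for Ccl4, -0.42 and 0.26 for Ccl3, and -0.35 and 0.36 for Ccl7, so that Ccl3 and Ccl7 differed in direction between the replicates.

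In the same comparison 5.61% of all genes were lower and 3.17% higher at an unadjusted p under 0.05. Of 7 endothelial and mural markers tested, 5 were lower at that limit, led by Flt1 (-1.04 ± 0.23) and Cdh5 (-1.47 ± 0.34), a VEGF receptor and the cadherin of endothelial junctions, with edgeR adjusted p-values of 0.428 and 0.51. Their summed level, mural genes included, was 239 and 179 CPM in SKF+Aβ+CSP and 114 and 113 CPM in SKF+Aβ+CSP-TTK21. Microglia markers went the other way, with 2 of 12 higher at that limit and sums of 190 and 163 CPM with the vehicle and 201 and 284 CPM with CSP-TTK21. Astrocyte markers were higher for 2 of 8 at that limit, with sums of 4480 and 4070 CPM with the vehicle and 5340 and 5660 CPM with CSP-TTK21. The perivascular macrophage marker Lyve1 was also higher (1.23). Of 5 meningeal fibroblast markers, Col1a1 (-1.64) and Col3a1 (-1.15) were lower and Pdgfra (0.43) was higher at that limit, with sums of 100 and 127 CPM with the vehicle and 120 and 142 CPM with CSP-TTK21. Of these sums, Pdgfra made up 83.9 and 77.4 CPM with the vehicle and 102 and 116 CPM with CSP-TTK21. Of 8 neuron markers 2 were higher, Nrgn (0.29) and Camk2a (0.34). Their part in the difference of the cytokines was not tested.

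When SKF+Aβ+CSP-TTK21 was set against SKF+Aβ, no member reached an unadjusted p under 0.05, a limit passed by 6.59% of all genes, and 0 members and 0% of all genes were called. The log2 fold changes of Cxcl1, Cxcl2, Ccl2, Il1b, Il6 and Lif were between -0.18 and 0.08, and their standard errors of 0.38 to 0.65 leave differences of that size undetected. Ccl3 alone was higher without overlap (0.45 ± 0.22, edgeR adjusted p = 0.746), against 18.2% of all genes. At an unadjusted p under 0.05, 4.06% of all genes were lower and 2.52% higher, and higher at that limit were 5 of 6 oligodendrocyte markers, 2 of 12 microglia markers with C1qa at 0.81, and 1 of 8 astrocyte markers, while Flt1 was lower (-0.68). Their part in the result was not tested. Both comparisons with SKF+Aβ and the one between the particles share libraries, so the lower values with CSP-TTK21 and the higher values with CSP involve the same SKF+Aβ+CSP libraries.

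Compared with SKF, SKF+Aβ+CSP-TTK21 had lower Ccl3 (-0.27 ± 0.22) and Ccl4 (-0.51 ± 0.31) in both libraries, 2 of 9 members where 24.5% of all genes were lower without overlap. No member had an unadjusted p under 0.05, which 19.6% of all genes had, and 0 members and 0% of all genes were called. Cxcl2 had the lowest adjusted value (-0.91 ± 0.48, edgeR adjusted p = 0.314), and its log2 fold change was 0.05 without the first SKF library. At an unadjusted p under 0.05, 8.78% of all genes were lower and 10.8% higher, and of the 7 endothelial and mural markers Cdh5 (-1.25), Flt1 (-0.80) and Kdr (-1.12) were lower, with sums of 231 and 135 CPM in SKF and 114 and 113 CPM in SKF+Aβ+CSP-TTK21. Higher were Lyve1 (1.46), Dcn, 1 of 12 microglia markers and 1 of 8 neuron markers, and Nrgn was lower (-0.27). In CSP-TTK21 alone against SKF, Lif was the single member at an unadjusted p under 0.05 (-1.02 ± 0.43, edgeR adjusted p = 0.633), against 7.78% of all genes. Its log2 ratio was -0.97 in replicate 1 and -1.12 in replicate 2, although the groups overlapped. Ccl3 was the single member with lower values and no overlap, against 17.3% of all genes, and 0 members and 0% of all genes were called. In that comparison 3.63% of all genes were lower and 4.16% higher at an unadjusted p under 0.05. Higher at that limit were Lyve1 (1.58) and Mrc1 (0.94), and lower were Cdh5 (-0.75), Nrgn (-0.36) and 2 of 6 oligodendrocyte markers. The part of these cells in either result was not tested. These groups differ in SKF as well as in the particle, which cannot be told apart here.

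**Figure D2:**
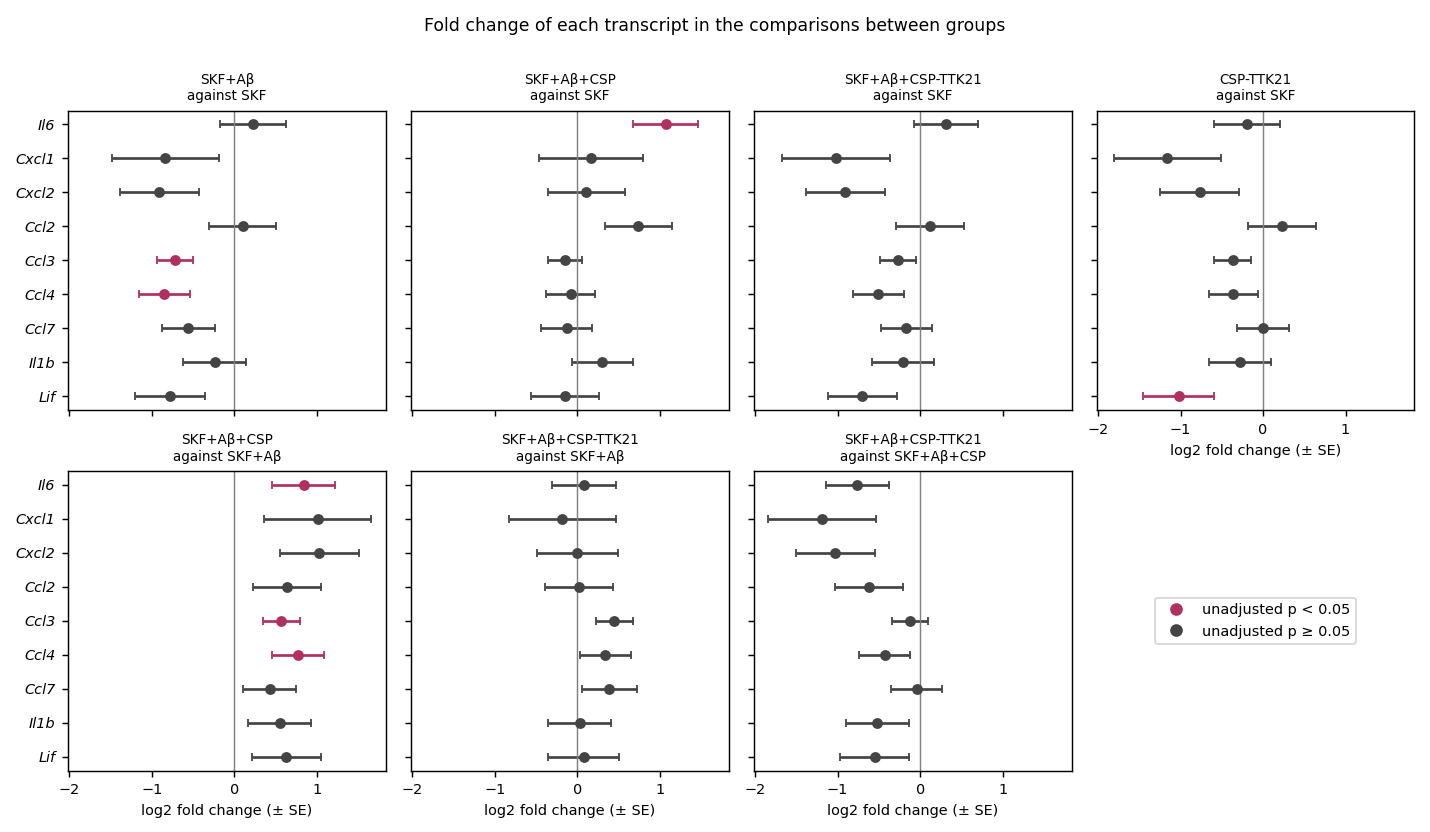
Log2 fold change with its standard error (horizontal axis) of each tested transcript in the 7 comparisons, from 1 edgeR fit over all 10 libraries. Transcripts with an unadjusted p under 0.05 are drawn in red. All 9 lie to the right of 0 for SKF+Aβ+CSP against SKF+Aβ and to the left of 0 for SKF+Aβ+CSP-TTK21 against SKF+Aβ+CSP, and none passed the adjusted test in any panel.

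The 2 libraries of a group often differed more than the groups did. In a comparison chosen after the values were seen, the library labelled replicate 1 was above that labelled replicate 2 in all 5 groups for 5 of the 9 members, Il6, Cxcl1, Ccl2, Ccl4 and Lif, against 4.26% of all genes. It was above in at least 4 groups for 8 of the 9, all but Ccl7, against 19.2% of all genes. The ratio was widest for Cxcl1 in SKF, at 5.19. For the same gene it was 3.49 in SKF+Aβ+CSP-TTK21, 2.47 with CSP-TTK21 alone, 1.99 in SKF+Aβ and 1.44 with the vehicle. Summed over the members, the level was 403 to 722 CPM in the replicate 1 libraries and 264 to 494 CPM in the replicate 2 libraries. Microglia markers summed to 167 to 211 CPM in replicate 1 and 163 to 284 CPM in replicate 2, and replicate 2 was the higher in 4 of the 5 groups. Endothelial and mural markers summed to 114 to 239 and 113 to 179 CPM, and replicate 1 was the higher in all 5 groups. Meningeal fibroblast markers summed to 90.1 to 120 CPM in replicate 1 and 122 to 150 CPM in replicate 2, without overlap. Most of these sums was Pdgfra, with 74.6 to 102 CPM in replicate 1 and 77.4 to 125 CPM in replicate 2, which overlapped. With the replicate number as a term of the fit, 3.21% of all genes were higher and 4.16% lower in replicate 2 at an unadjusted p under 0.05. Of the 9 members, 7 were lower and 0 higher. Of the lists described further on, 10 of 20 NF-κB and STAT3 genes and 5 of 12 other inducible cytokines and chemokines were lower. So were 1 of 11 receptors and antagonists and 1 of 11 immediate early genes, and no gene of these lists was higher at that limit. Higher at that limit were 8 of 12 microglia markers, 3 of 8 astrocyte markers and 3 of 5 fibroblast markers, with Dcn at 1.02. Lower were 3 of 7 endothelial and mural markers and 1 of 6 oligodendrocyte markers, and 0 of 8 neuron markers passed the limit. Their part in the pattern was not tested, and the labels do not say what a replicate number stands for.

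Within each replicate number the order of the groups could be read separately. Among the replicate 2 libraries, SKF+Aβ+CSP was the highest for 6 of the 9 members (Il6, Cxcl1, Cxcl2, Ccl2, Il1b and Lif), against 25.5% of all genes. Among the replicate 1 libraries, SKF+Aβ+CSP was the highest for 5 members (Il6, Ccl2, Ccl3, Ccl4 and Ccl7), against 10.6% of all genes, and SKF for the other 4 (Cxcl1, Cxcl2, Il1b and Lif), against 28.1%. These ranks are a description of 5 libraries each.

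**Figure D3:**
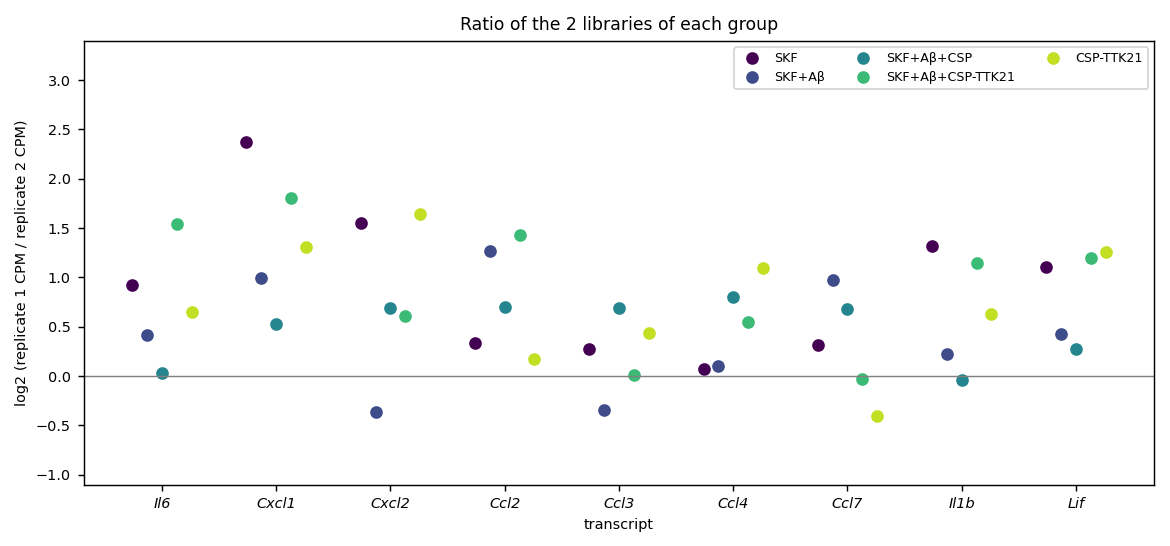
Log2 ratio of the replicate 1 library to the replicate 2 library (vertical axis) for each tested transcript, with 1 point per group. Points above 0 mean a higher level in replicate 1. All 5 points are above 0 for Il6, Cxcl1, Ccl2, Ccl4 and Lif, and the highest is Cxcl1 in SKF.

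The members were next compared with each other over the 10 libraries. Of 36 pairs, 35 had a positive Pearson's r of log2 CPM, with a median of 0.59, and 13 had an adjusted p under 0.05 in the 2-sided permutation test (100000 resamples, Benjamini-Hochberg over the 36 pairs). By Spearman's rho it was also 13 pairs. Cxcl1 and Il1b were the closest pair (r = 0.95, permutation p = 7.00e-05, adjusted p = 0.00144, rho = 0.96, permutation p = 4.00e-05, adjusted p = 0.00144), and r was 0.92 without the 2 libraries farthest from the median of Cxcl1. Cxcl1 and Lif followed (r = 0.93, permutation p = 8.00e-05, adjusted p = 0.00144, rho = 0.95, permutation p = 1.30e-04, adjusted p = 0.00234), with r of 0.91 without 2 libraries. Cxcl1 and Cxcl2, both ligands of Cxcr2, had r = 0.87 (permutation p = 0.00138, adjusted p = 0.00828) and rho = 0.85 (permutation p = 0.0031, adjusted p = 0.0124), and r of 0.81 without 2 libraries. Il6 varied with Il1b (r = 0.89, permutation p = 0.00107, adjusted p = 0.00778, rho = 0.83, permutation p = 0.0047, adjusted p = 0.0169), with r of 0.86 without 2 libraries.

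Ccl3 and Ccl4 also varied together (r = 0.84, permutation p = 0.00251, adjusted p = 0.0129, rho = 0.87, permutation p = 0.00226, adjusted p = 0.0116), with r of 0.83 without 2 libraries. Ccl4 was past the test with Cxcl2 and Lif as well, while Ccl3 had no other partner past it, and with Il6 it had r = 0.15 (permutation p = 0.664, adjusted p = 0.724, rho = 0.27, permutation p = 0.447, adjusted p = 0.595). Ccl7 had none, and its r with Ccl2, the gene for the other ligand of Ccr2, was 0.49 (permutation p = 0.148, adjusted p = 0.231, rho = 0.09, permutation p = 0.812, adjusted p = 0.913). Over the 13 pairs past the test, r without the 2 farthest libraries was between 0.56 and 0.97. The libraries of different groups are not exchangeable in the strict sense, so that r of the deviations from the group means is given as a description. It was positive in all 13 of these pairs, with 0.97 for Cxcl1 and Il1b and 0.75 for Ccl3 and Ccl4. With the mean of each replicate number removed, 7 pairs were past the test instead of 13.

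**Figure D4:**
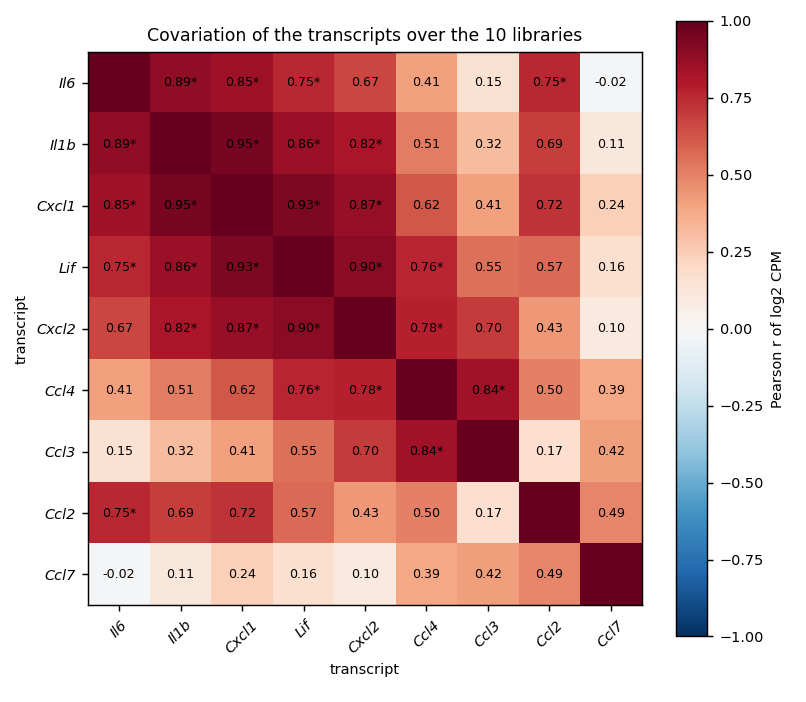
Pearson's r of log2 CPM over the 10 libraries for each pair of tested transcripts, which stand on both axes. The color gives r from -1 to 1, and an asterisk marks an adjusted permutation p under 0.05. Cxcl1, Il1b, Lif, Il6 and Cxcl2 form the block of high values at the upper left, and Ccl7 is the last row.

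The genes of the whole table whose levels were most like those of each member are given as a description over the same 10 libraries, chosen among 15032 genes. For Cxcl1 they were Nlrp3 (r = 0.98), the sensor of an inflammasome, Tnfaip2 (r = 0.97) and Birc3 (r = 0.96), an NF-κB target. The likest gene to Cxcl2 was Cxcl3 (r = 0.96), a chemokine of the same family, and Oasl was also among them (r = 0.94). For Il1b they were Il19 (r = 0.98), Cxcl1 (r = 0.95) and Gbp2 (r = 0.95), and for Lif Gbp4 (r = 0.97), Tnfaip3 (r = 0.96), which encodes the NF-κB inhibitor A20, and Oasl (r = 0.95). Il6 had Fbxo36 (r = 0.97), Tmc7 and Tnfaip6 (r = 0.94 each). Ccl2 had Itgav (r = 0.98), Ifitm3 (r = 0.96) and Cxcl9 (r = 0.92). Those of Ccl3 included Pdk4 and Rdh16 (r = 0.92 each), those of Ccl4 were Adgre1 (r = 0.91), a macrophage surface receptor, Ampd3 and Cnppd1 (r = 0.90 each), and those of Ccl7 were Cuedc2 and S1pr2 (r = 0.90 each) and Gfer (r = 0.89).

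Other genes of these pathways were read from lists. Of 18 other inducible cytokines and chemokines, 12 were tested, and 4 of these had an unadjusted p under 0.05 among the 5 groups, against 14.3% of all genes, while 0 passed the adjusted test in edgeR, against 0.00665%. The lowest values were those of Cxcl11 (edgeR adjusted p = 0.189), Il1a (edgeR adjusted p = 0.209) and Csf3 (edgeR adjusted p = 0.26). Cxcl11, a ligand of Cxcr3 induced by interferon, had 11.6 and 13.9 CPM in SKF+Aβ+CSP and 1.64 to 5.73 CPM in the other 8 libraries. Its log2 fold change was 1.77 ± 0.41 for SKF+Aβ+CSP against SKF+Aβ and -2.01 ± 0.42 for SKF+Aβ+CSP-TTK21 against SKF+Aβ+CSP (edgeR adjusted p = 1 and 0.336). Il1a had 33.9 and 23.2 CPM in SKF, 54.5 and 47.9 CPM in SKF+Aβ+CSP and 51.1 and 35.6 CPM in SKF+Aβ+CSP-TTK21. Between the particles its log2 fold change was -0.24 ± 0.20. Csf3, the granulocyte colony-stimulating factor, had 31.7 and 4.14 CPM in SKF and 2.43 and 0.428 CPM in SKF+Aβ+CSP-TTK21, the last from 3 counts. Between the particles, 3 of the 12 were lower and 0 higher at an unadjusted p under 0.05, against 5.61% and 3.17% of all genes.

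Of 16 receptors and antagonists, 11 were tested and 1 had an unadjusted p under 0.05 among the groups. This was Il1r1, the signalling receptor of interleukin 1, at 11.6 and 13 CPM in SKF+Aβ+CSP and 6.78 and 7.13 CPM in SKF+Aβ+CSP-TTK21 (-0.82 ± 0.22, edgeR adjusted p = 0.517). Cxcr1 followed (edgeR adjusted p = 0.433). Cxcr2 and Ccr1 did not pass the filter, and Ccr2 had 0 counts in every library. All 20 genes of NF-κB and STAT3 targets and feedback were tested, and 8 had an unadjusted p under 0.05 among the groups, where 14.3% of all genes did. Against SKF, 11 of the 20 were lower in SKF+Aβ and 0 higher at that limit, against 10.9% and 12% of all genes, with a median log2 fold change of -0.61. Of these, Rela, the p65 subunit of NF-κB (-0.65 ± 0.15, edgeR adjusted p = 0.0443), and Socs3, an inhibitor of STAT3 signalling (-0.86 ± 0.20, edgeR adjusted p = 0.0454), fell at an adjusted p under 0.05, short of the fold change limit. In the other groups against SKF, 2 of the 20 were lower in SKF+Aβ+CSP (median -0.13, 9.03% of all genes), 9 in SKF+Aβ+CSP-TTK21 (median -0.43, 8.78%) and 8 in CSP-TTK21 alone (median -0.48, 3.63%), and Rela and Socs3 were among them in each of the 3 groups. Relb, another NF-κB subunit, had 23 and 21.1 CPM in SKF+Aβ+CSP and 12.9 and 11.4 CPM in SKF+Aβ+CSP-TTK21 (-0.86 ± 0.21, edgeR adjusted p = 0.51). Of 11 immediate early genes tested, those lower than in SKF at an unadjusted p under 0.05 were 10 with CSP-TTK21 alone (3.63% of all genes), 5 for SKF+Aβ+CSP (9.03%), 4 for SKF+Aβ (10.9%) and 2 for SKF+Aβ+CSP-TTK21 (8.78%), with 0 higher in each case. Junb had the lowest value in CSP-TTK21 against SKF (-1.16 ± 0.25, edgeR adjusted p = 0.633).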

How the data were processed

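RNA was measured in 10 libraries of rat hippocampal slices, 2 in each of 5 groups, with groups and replicate numbers taken from the sample titles. The deposited values are unnormalized integer counts, 1 column per library, on rat Ensembl genes. Per the study's methods, the libraries were depleted of ribosomal RNA and stranded, and adapters were trimmed, PCR duplicates removed and reads aligned with TopHat2. The methods name both a rat and a mouse assembly, and the program that made the counts and its use of strand are not given in the sources used here, so overlapping or duplicated genes are uncertain. The deposited table was the only file used, and the depth per library is given with the results.

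Genes with low counts were removed (filterByExpr), and the rest were normalized with TMM factors and tested in R 4.3.3 with edgeR 4.0.16, in 1 quasi-likelihood fit of the 5 group means over all 10 libraries. A gene was called where its p, adjusted by Benjamini-Hochberg, was under 0.05 over all 15032 genes and, between 2 groups, its log2 fold change was beyond 1.5, limits stated in the study's methods. Standard errors are the log2 fold change divided by the root of the F statistic. The study names the 2 libraries of a group biological replicates, each pooled from slices of more than 1 biological sample, and does not say whether these came from other animals in the other library, so p-values measure the spread between these libraries. Correlations used log2 CPM with a prior count of 2. As alternatives, a replicate block was added, or the tests used DESeq2 1.42.0, limma 3.58.1, RLE factors, library totals, no filter, only the libraries compared, and each library left out. The fit was tested on simulated counts with 200 changed genes.

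Named were all 10 members, up to 3 genes of each list with the lowest p over the groups, and the 3 genes most like each member, some of which are not reported here. Other genes given beside a comparison were the list genes with the lowest p in it, and Relb in that between the particles. The members and lists were chosen with earlier results of these data known. The term of the replicate number was added after its values were seen. Intervals of counting error were not needed beyond the level of 3 counts.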

Additional observations from a re-analysis of the deposited data

How the results depend on the processing

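No member was called in any of the 7 comparisons under any alternative run, and over 491 alternatives of 29 fold changes 4 turned their direction, each when 1 library was left out. With SKF+Aβ against SKF, Cxcl1 ranged from -1.59 to 0.77 and Cxcl2 from -1.49 to 0.05, and Cxcl2 in SKF+Aβ+CSP-TTK21 against SKF also from -1.49 to 0.05, the positive values being those without replicate 1 of SKF. Between the particles, Ccl4 ranged from -0.77 to 0.03, the last without replicate 1 of SKF+Aβ+CSP. Without the filter on low counts, edgeR tested 25251 genes. Among the 5 groups it then called 7 members and 5.55% of all genes, against 0 members and 0.00665% with the filter. Of the 29 fold changes, 18 then had an adjusted p under 0.05 where they had not before. The share of all genes past that limit alone was not counted. With the fold change limit, the 7 comparisons called 0.0752% to 0.475% of all genes without the filter and 0% to 0.146% with it. The cause was not tested. DESeq2 gave Ccl3 an adjusted p of 0.0309 in SKF+Aβ against SKF. When each library was left out in turn, the log2 fold change of Cxcl1 between the particles was from -2.35 to -0.56, the extremes being without either SKF+Aβ+CSP-TTK21 library, and the pairs of members past the correlation test numbered 9 to 15.

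With the replicate block, 0 members were called among the 5 groups and in each comparison. The lowest adjusted p of a member was 0.0505 in SKF+Aβ against SKF and 0.0949 in SKF+Aβ+CSP-TTK21 against SKF+Aβ+CSP, where Cxcl1 had -1.44. In SKF+Aβ+CSP against SKF+Aβ, 8 members had an unadjusted p under 0.05 with the block, and 2.75% of all genes, against 3 members and 2.18% without it. In SKF+Aβ+CSP-TTK21 against SKF+Aβ+CSP it was 6 members and 9.91%, against 0 members and 8.78%, and among the 5 groups 7 members and 16.3%, against 1 member and 14.3%. Without the block, the fit of only the libraries compared gave 3 members and 13.8% between the particles. For SKF+Aβ+CSP against SKF+Aβ that fit gave 7 members and 2.8%. Against SKF, the block gave 3 members and 23.7% in SKF+Aβ, and 2 members and 19.8% in SKF+Aβ+CSP. It gave 4 members and 20.8% in SKF+Aβ+CSP-TTK21, against 0 members and 19.6% without it. In CSP-TTK21 alone it was 3 members and 8.77%, against 1 member and 7.78%. Removing the replicate means left 7 correlated pairs, against 13. Same-numbered libraries deviated together with correlations of -0.0691 to 0.237, over 0.1 in 4 of 10 pairs of groups. Correlations over all genes cannot show whether same-numbered libraries share an origin that acts on some genes. The main fit has no term for the number, and the labels do not say what it stands for. With that term, 7 of 9 members were lower in replicate 2 at an unadjusted p under 0.05, against 4.16% of all genes. At an adjusted p under 0.05 it was 1 member and 0.0466% of all genes, and in DESeq2 2 members, Cxcl1 and Lif, and 0.186%. The term of the number was -1.38 for Cxcl1 (edgeR adjusted p = 0.0317), and the adjusted p was 0.0602 and 0.0607 without the first and the second SKF+Aβ+CSP-TTK21 library.

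The limits are 2 pooled libraries per group, an untested origin of the gap between libraries of a group, and counts of Tnf that were too low for a test.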
